A study of Homo sapiens with 12 samples.

Results

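The 44 genes described here encode the proteins that load and fire replication origins, copy DNA and supply its building blocks, with the cyclins, the transcription factor and the checkpoint kinase that act around entry into S phase. They were chosen by symbol and known role, not by a measured value, though with earlier results of these arrays known, and every probe annotated to a listed symbol was read. All 44 genes had a probe on the array, with 65 probes in all, and 40 genes passed the detection filter, out of 9696 genes tested. The other 4 were CDC6, GINS1, CCNE2 and CLSPN. CDC6, which helps to load the helicase, was detected on 1 of 3 VP arrays and 2 of 3 DMSO arrays of MKN45 and on no array of AGS. GINS1, a helicase cofactor, was detected on 1 of 3 DMSO arrays of MKN45 only. Cyclin E2 (CCNE2) and claspin (CLSPN), an adaptor of the checkpoint kinase CHEK1, were detected on none of the 12 arrays.

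Gene expression in the gastric adenocarcinoma cell lines AGS and MKN45 was read on Illumina HumanHT-12 V4 bead arrays to find genes that respond to verteporfin (VP). VP is a light-activated porphyrin used against abnormal blood vessels of the eye, and it is also known to disturb binding of YAP1 to TEAD factors. There were 3 arrays each of VP-treated AGS, DMSO-treated AGS, VP-treated MKN45 and DMSO-treated MKN45 cells, where DMSO stands for vehicle alone. The labels give a treatment of 36 hours for every array, the methods give a longer one, and the dose used for the array cultures is not given in the sources read. Whether the 3 arrays of a group stem from separate cultures is not stated either, so each p-value reflects only how far these arrays scatter, and that scatter may be technical. Each group comes from an established line grown in culture, so it holds no stroma, blood vessel or immune cells, and RNA was taken from whole cultures.

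The authors deposited 2 tables of the same 47323 probes, and they do not describe the same pattern. The signal table holds linear brightness with a detection p-value, and the value table holds the authors' normalized log2 levels. Matched by rank correlation, only 2 of the 12 value columns paired best with their namesake among the signal columns. All 6 signal columns labelled MKN45 had a higher mean rank correlation with the AGS than with the MKN45 columns of the value table. MET, a receptor gene that is amplified in MKN45 and was chosen after its values were seen, had a log2 level of 9.26 in VP and 9.0 in DMSO arrays labelled MKN45 in the signals, near the 9.45 and 8.79 of AGS. In the value table MET stood at 12.02 and 12.59 in MKN45, against 8.21 and 8.87 in AGS. In the signals the labelled lines thus differed little in MET, with MKN45 lower than AGS among VP arrays and higher among DMSO arrays. AGS and MKN45 here name the labels of the columns. Median signals ranged from 98.4 to 137, and 14523 to 16571 probes were detected per array. All 5 epithelial markers were detected on all arrays. Of the markers of other cell types, LYZ was detected on all arrays (1 of 5 leukocyte genes), COL1A1 was detected on 3 arrays (1 of 5 fibroblast genes), and none of 4 endothelial genes was detected on any.

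DNA replication begins in G1, when the origin recognition complex, CDC6 and CDT1 place the MCM helicase on origins. At the start of S phase the kinase CDC7 and the cyclin E kinase convert it to an active helicase with CDC45 and the GINS complex. Polymerase alpha with primase begins each strand, the RFC loader places the PCNA clamp, and polymerases epsilon and delta extend the leading and lagging strands. RPA shields the exposed single strands, while FEN1 and LIG1 finish the Okazaki fragments. Many of these genes are transcribed together under E2F factors, which RB1 restrains until cyclin-dependent kinases release them. Proliferating tumour cells usually express them at high levels.

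In the signals, replication genes were mostly lower with VP in both lines (limma, adjusted p under 0.05). In AGS, 26 of 40 members (65%) fell and 3 (7.5%) rose, while 30.0% of all genes tested fell and 26.3% rose. In MKN45, 22 of 40 (55%) fell and 3 (7.5%) rose, while 23.1% of all genes fell and 22.9% rose. The lines shared 21 members that fell, against 17.5% of all genes that fell in both, and 3 that rose, against 16.9%. The median log2 change of the 40 members was −0.55 in AGS, where that of all genes was −0.03, and −0.33 in MKN45, where that of all genes was −0.02. In all, 36 members lay below 0 in AGS and 33 in MKN45. The 10 members called in neither line were ORC6, MCM10, CDC45, GINS4, POLA2, RFC2, RFC3, RPA3, RRM1 and CHEK1. Since RNA came from whole cultures, fewer cells in S phase and less of an mRNA per cell cannot be told apart.

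The size of this pattern depends on the scaling of the arrays. When each array was shifted to a common median over all probes in place of quantile normalization, the median change of all genes moved to 0.15 in AGS and 0.27 in MKN45. Of all calls 29.7% were then lower in AGS and 15.2% in MKN45, where quantile normalization gave 53.3% and 50.2%. Under that shift 16 members fell in AGS, 2 fell in MKN45 (MCM7 and FEN1) and the same 3 rose in each. The AGS calls of MCM5, MCM6, CDC7, POLA1, POLD1, RFC5, RPA1, RPA2, TK1 and E2F1 were lost. The shares over all genes under that shift were 12.9% lower and 30.7% higher in AGS, and 6.2% lower and 34.7% higher in MKN45, so the 2 of 40 in MKN45 stood near the share of all genes. Measured from the median of all genes, the members' median was −0.49 in AGS and −0.27 in MKN45 under the shift, against −0.52 and −0.31 after quantile normalization. With the shift, 36 members in AGS and 33 in MKN45 lay below the median of all genes, against 35 and 32 after quantile normalization. From below to above 0 under the shift went 7 members in AGS, none of them called, and 13 in MKN45, of which MCM6, GINS3 and CCNE1 had been called lower. A shift to a common median over only the probes detected on all 12 arrays, chosen after seeing the data, kept most calls. With it 28 members fell in AGS and 21 in MKN45, against 31.1% and 25.5% of all genes. The median shift named below is the one over all probes unless stated.

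The value table did not show this fall. In AGS no member was called lower with limma, at an adjusted p under 0.05 or at an unadjusted p under 0.05. At the adjusted threshold 14.1% of all genes were called lower. GINS3, POLA2, PRIM1, RRM2, E2F1 and CHEK1 rose there (6 of 40, 15%), against 16.1% of all genes. In MKN45, MCM10, GINS4 and RFC3 fell (3 of 40, 7.5%), against 10.7% of all genes, and MCM5 rose, against 11% of all genes. No member fell or rose in both lines at the adjusted threshold, while 6.82% of all genes fell in both and 4.10% rose in both (limma). At an unadjusted p under 0.05 (limma) the counts in both were 0 lower and 3 higher, namely MCM5, CDT1 and POLA2. The share of all genes at that looser threshold was not counted. The median change was 0.08 in AGS and 0.02 in MKN45, where that of all genes was 0.03 and 0.01. All member changes in the value table lay between −0.13 and 0.29 in AGS and between −0.27 and 0.20 in MKN45. In the signals they spanned −1.17 to 0.66 in AGS and −1.05 to 0.61 in MKN45.

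**Figure D1:**
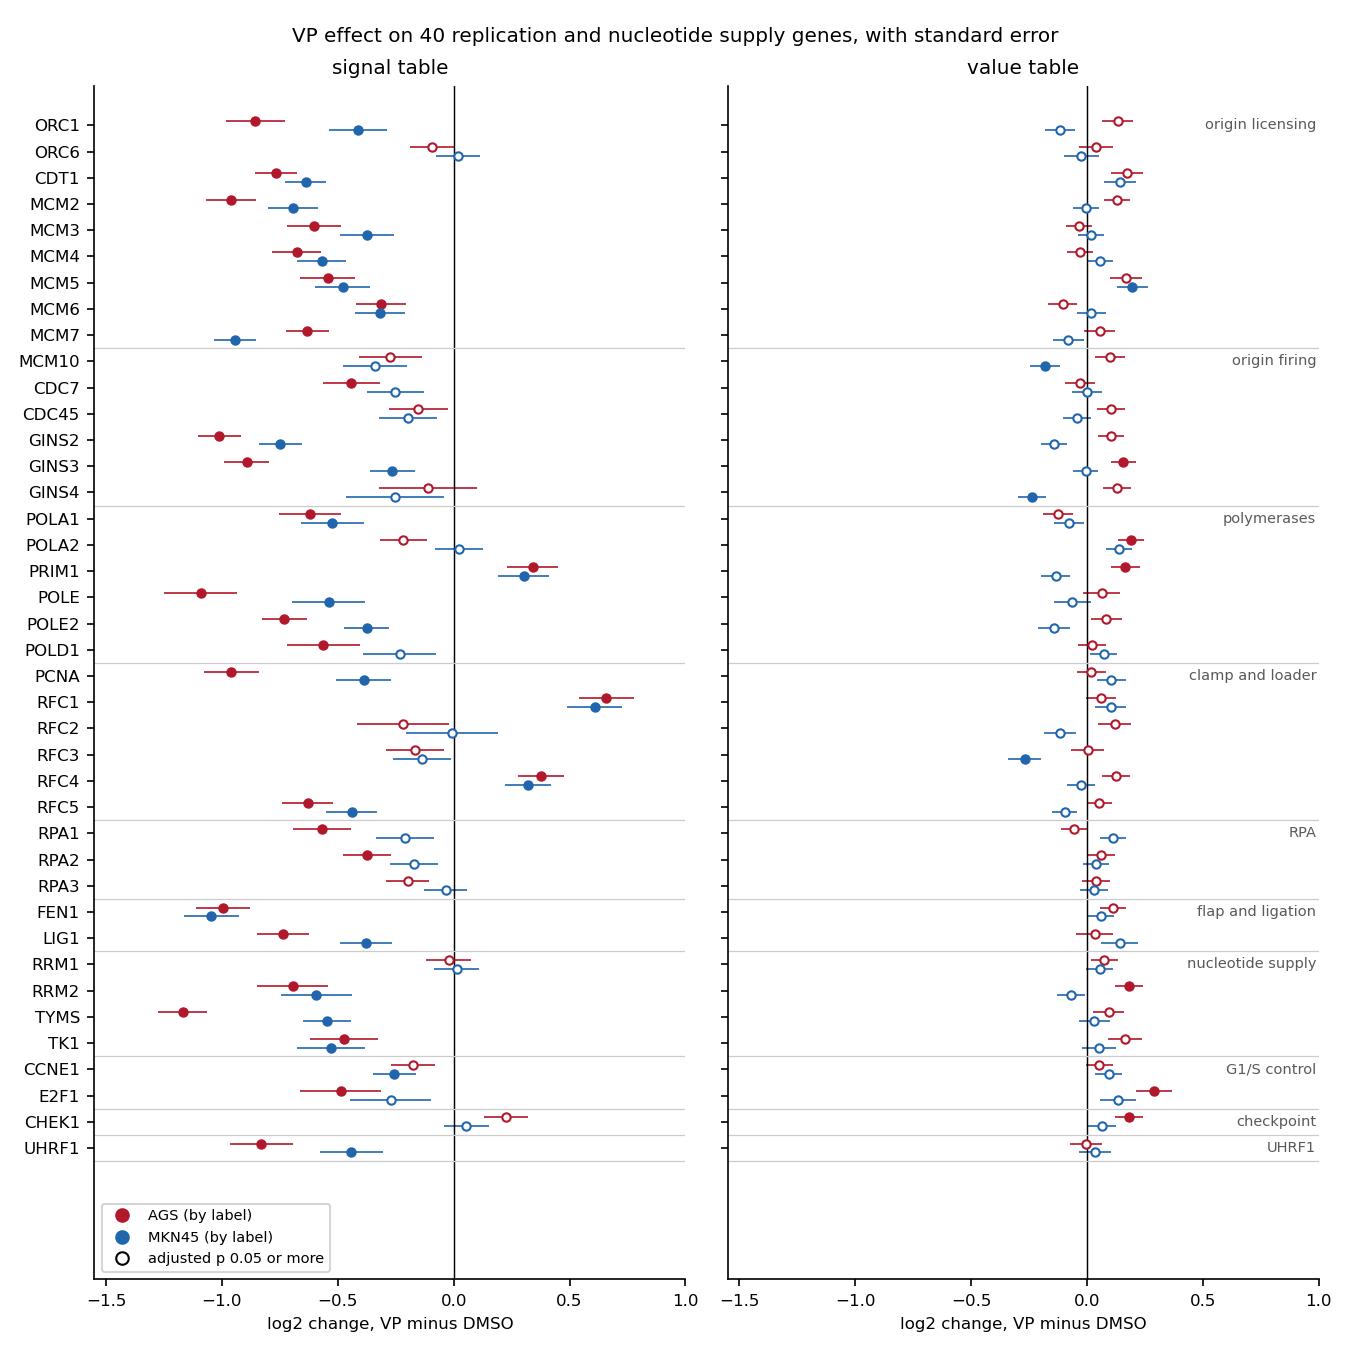
Log2 change (VP minus DMSO, horizontal axis) with its standard error for the 40 tested members, grouped by role, in the signal table (left) and the value table (right). Red is AGS and blue MKN45 by label, and filled points passed an adjusted p of 0.05. In the signals 26 members in AGS and 22 in MKN45 lie left of 0 as filled points, and in the value table none in AGS and 3 in MKN45 do. A median shift over all probes (not drawn) gave 16 and 2 in the signals. It moved 7 members in AGS and 13 in MKN45 from below to above 0. A shift over probes detected on all 12 arrays gave 28 and 21.

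**Figure D2:**
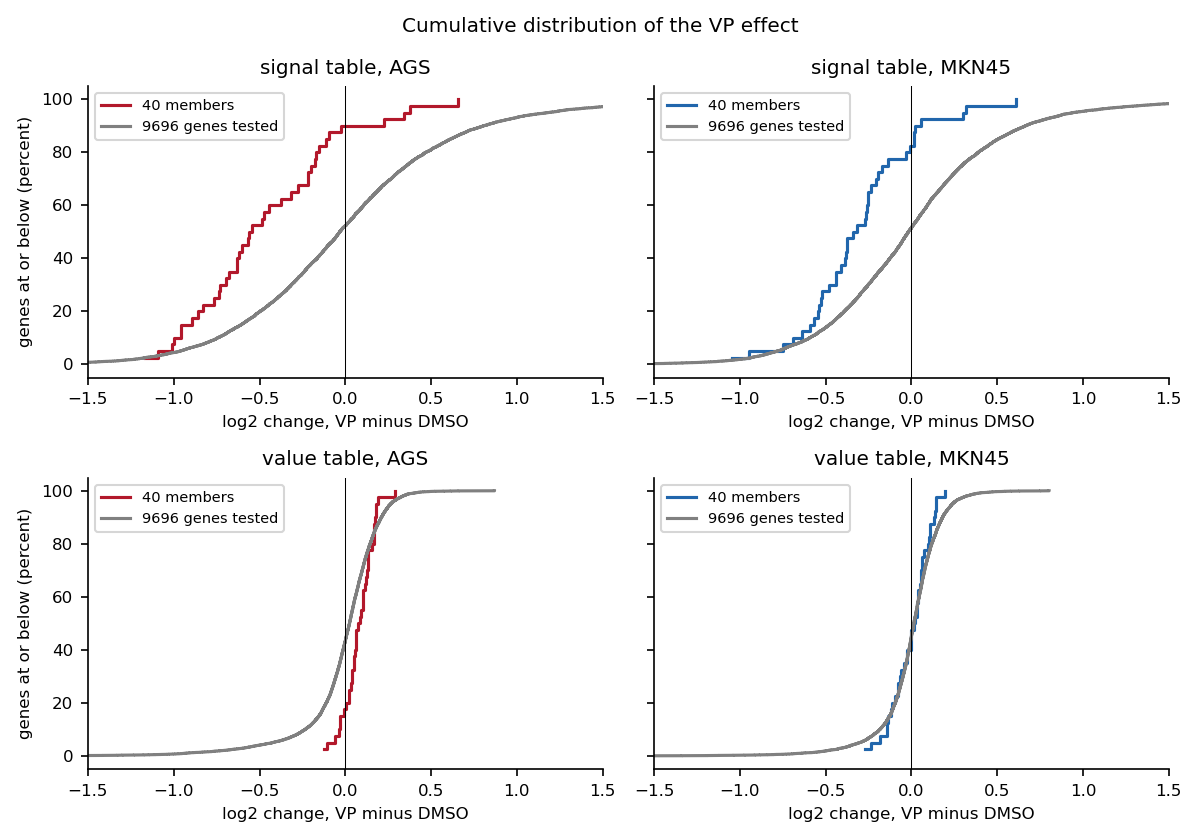
Share of genes at or below each log2 change (VP minus DMSO) for the 40 members (coloured) and the genes tested (grey), in each table and line, with the horizontal axis ending at 1.5 on both sides. The member curve lies left of the grey curve in both signal panels, where the medians are −0.55 and −0.33, and near it in the value table, where they are 0.08 and 0.02.

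Promoter sequence was set beside these changes because E2F factors are known to drive many of these genes. RefSeq windows on GRCh38.p14, from 250 bases before to 50 bases after each gene's start, were held for 38 of the 44 members. MCM4, MCM5, GINS4, RPA2, RPA3 and CCNE2 had no entry. Both strands were searched for 4 words of the E2F class (TTTCCCGC, TTTGGCGC, TTTCGCGC and TTTGCCGC), for CCAAT and for TTTGAA, the core of the cell cycle homology region of mitotic promoters. An E2F word can overlap another on the opposite strand. An E2F word was present in 20 of 38 member windows (52.6%), against 457 of 7923 windows of genes tested (5.77%) and 908 of 27305 in all (3.33%). CCAAT was present in 23 of 38 (60.5%), against 37.9% of genes tested and 35.7% of all windows, and TTTGAA in 1 of 38, against 9.76% and 15.4%.

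Below are 120 bases around the start of 9 members, 80 before and 40 from the start on, in the direction of transcription, with E2F words in capitals. The first 7 are members that fell in both lines and carry a word near the start. FEN1 is shown because it fell as far without a word, and RFC1 because it rose.
TYMS, chr18:657573-657692, plus strand: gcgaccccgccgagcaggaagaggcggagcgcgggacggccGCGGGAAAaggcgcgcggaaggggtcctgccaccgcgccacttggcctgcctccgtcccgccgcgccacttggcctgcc
GINS2, chr16:85688915-85689034, minus strand: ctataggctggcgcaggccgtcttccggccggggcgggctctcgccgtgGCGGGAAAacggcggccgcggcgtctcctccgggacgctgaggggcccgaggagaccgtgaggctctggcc
GINS3, chr16:58392391-58392510, plus strand: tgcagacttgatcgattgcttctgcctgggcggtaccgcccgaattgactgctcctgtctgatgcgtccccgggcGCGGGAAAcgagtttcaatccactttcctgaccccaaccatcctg
MCM2, chr3:127598331-127598450, plus strand: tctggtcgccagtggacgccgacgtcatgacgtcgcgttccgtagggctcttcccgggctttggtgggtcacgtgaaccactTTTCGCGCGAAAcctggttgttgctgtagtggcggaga
CDT1, chr16:88803709-88803828, plus strand: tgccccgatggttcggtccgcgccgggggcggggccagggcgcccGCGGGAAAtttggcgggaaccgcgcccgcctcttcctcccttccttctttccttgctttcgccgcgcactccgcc
MCM7, chr7:100101358-100101477, minus strand: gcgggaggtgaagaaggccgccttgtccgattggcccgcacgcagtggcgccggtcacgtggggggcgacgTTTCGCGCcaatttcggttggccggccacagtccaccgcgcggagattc
PCNA, chr20:5126583-5126702, minus strand: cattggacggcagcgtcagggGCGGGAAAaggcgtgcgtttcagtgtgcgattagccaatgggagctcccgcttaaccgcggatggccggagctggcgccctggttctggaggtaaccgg
FEN1, chr11:61792831-61792950, plus strand: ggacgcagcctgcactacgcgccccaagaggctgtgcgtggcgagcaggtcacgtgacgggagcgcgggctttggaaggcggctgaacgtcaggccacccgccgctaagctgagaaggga
RFC1, chr4:39366323-39366442, minus strand: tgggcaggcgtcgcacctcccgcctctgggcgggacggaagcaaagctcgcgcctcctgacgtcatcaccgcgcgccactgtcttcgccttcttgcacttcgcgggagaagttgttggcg
The word GCGGGAAA, which is TTTCCCGC read from the other strand, began 39 bases before the start of TYMS, 31 before that of GINS2, 35 before that of CDT1, 59 before that of PCNA and 5 before that of GINS3. MCM7 had TTTCGCGC 9 bases before the start. In MCM2 the words of both strands overlap just past the start. FEN1 and RFC1 held none of the 4 words in the full window, which says only that these letters are not in it.

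Among members that fell in both lines in the signals, 14 of 19 windows (73.7%) held an E2F word. It was in none of the 3 windows of members that rose in both, and in 2 of 11 windows (18.2%) of members called lower in neither line, those of POLA2 and RFC3, where the 11 include the 3 that rose. The 17 tested members with a word had a median change of −0.74 in AGS and −0.39 in MKN45, and 15 and 14 of them fell. The 18 without a word had a median of −0.25 and −0.22, with 8 and 6 that fell. In the value table the 17 with a word had a median of 0.06 in AGS and 0.02 in MKN45, and the 18 without had 0.10 and −0.01. No test was made of these differences. Outside the list the word went with a smaller contrast. Of 440 other tested genes with a word, 33.4% fell in AGS and 23.4% in MKN45, against 30.1% and 22.5% of 7448 genes without one, and 21.1% and 20.7% rose, against 26.2% and 23.4%. A match is a description of sequence and not a binding site shown to act in these cells.

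**Figure D3:**
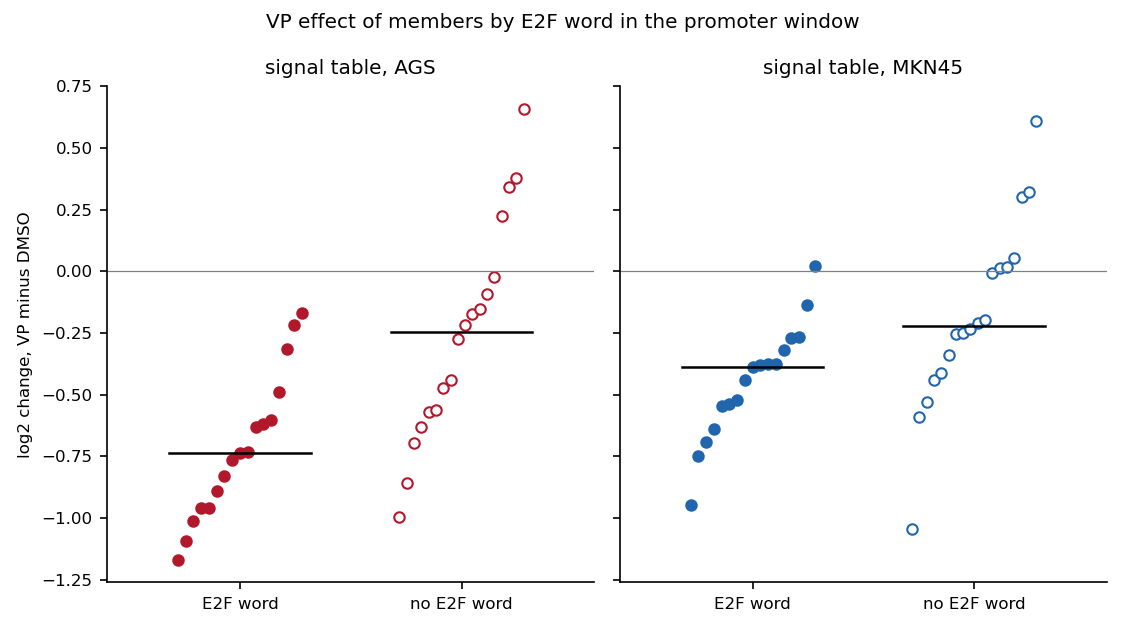
Log2 change (VP minus DMSO) in the signals of the 35 tested members with a promoter window, for the 17 with an E2F word (filled) and the 18 without (open), in AGS (left) and MKN45 (right). Points are genes in order of change and the line is the median, −0.74 against −0.25 in AGS and −0.39 against −0.22 in MKN45.

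Of the origin licensing genes, 8 of 9 tested were called lower by the signals in AGS and MKN45 alike, against 17.5% of all genes, with a median of −0.63 in AGS and −0.48 in MKN45. Under the median shift 6 of 9 fell in AGS and 1 of 9 in MKN45, against 12.9% and 6.2% of all genes. MCM2, a helicase subunit, read 8.53, 8.57 and 8.37 on VP arrays of AGS, against 9.50, 9.54 and 9.31 on DMSO arrays (log2 levels in the signals). In MKN45 it read 8.48, 8.52 and 8.29 with VP, against 9.27, 9.06 and 9.04 with DMSO. The groups did not overlap in either line, and MCM2 fell by 0.96 ± 0.11 in AGS (SE, adjusted p = 6.28e-06) and by 0.69 ± 0.11 in MKN45 (adjusted p = 0.000173). MCM7, another subunit, read 9.97, 9.87 and 9.89 with VP in MKN45, against 10.94, 10.79 and 10.84 with DMSO. In AGS its levels were 10.25, 10.44 and 10.28 with VP, against 10.92, 10.95 and 10.98 with DMSO. It fell by 0.95 ± 0.09 in MKN45 (adjusted p = 2.69e-06), which left 51.9% of the DMSO level, and by 0.63 ± 0.09 in AGS (adjusted p = 5.31e-05). A dimmer MCM7 probe fell in MKN45 only, by 0.54 (adjusted p over probes = 0.0253), and its change in AGS was −0.06 (adjusted p over probes = 0.787). MCM4 read 9.54, 9.66 and 9.69 with VP in MKN45, against 10.14, 10.08 and 10.38 with DMSO, and 9.36, 9.33 and 9.44 in AGS, against 9.99, 9.96 and 10.21. No VP array reached a DMSO array, and the second MCM4 probe fell further, by 0.95 in AGS and 0.78 in MKN45.

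CDT1, the factor that brings the helicase to origins, read 6.67, 6.48 and 6.48 with VP in AGS, against 7.32, 7.26 and 7.35 with DMSO. In MKN45 it read 7.05, 7.01 and 6.93 with VP, against 7.69, 7.60 and 7.61. CDT1 thus fell on every VP array, by 0.77 ± 0.09 in AGS (adjusted p = 9.39e-06) and by 0.64 ± 0.09 in MKN45 (adjusted p = 7.88e-05). ORC1, the ATP-binding subunit of the origin recognition complex, fell by 0.86 in AGS and by 0.41 in MKN45, where a DMSO array at 6.43 lay below a VP array at 6.45 and the call was lost without any of MKN45 VP 1, VP 2, DMSO 1 and DMSO 2. ORC6, the smallest subunit of that complex, changed by −0.09 and 0.02 and was called in neither line. The helicase subunits MCM3, MCM5 and MCM6 fell by 0.60, 0.54 and 0.31 in AGS and by 0.37, 0.48 and 0.32 in MKN45, with MCM6 at 0.005 in MKN45 under the median shift. The MCM3 call in MKN45 was lost without MKN45 VP 1, DMSO 1 or DMSO 3, and that of MCM6 without AGS VP 1 or DMSO 1 in AGS and without MKN45 VP 2, VP 3 or DMSO 1 in MKN45. No licensing gene fell in the value table, and their changes ran from −0.10 to 0.17 in AGS and from −0.12 to 0.20 in MKN45. MCM5 read 8.77, 8.97 and 8.93 with VP in MKN45 there, against 8.71, 8.70 and 8.67 with DMSO, and rose by 0.20 ± 0.07 (adjusted p = 0.039). That is opposite to its fall in the signals, and the call was lost without any of MKN45 DMSO 1, 2 or 3 or VP 2 or 3.

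**Figure D4:**
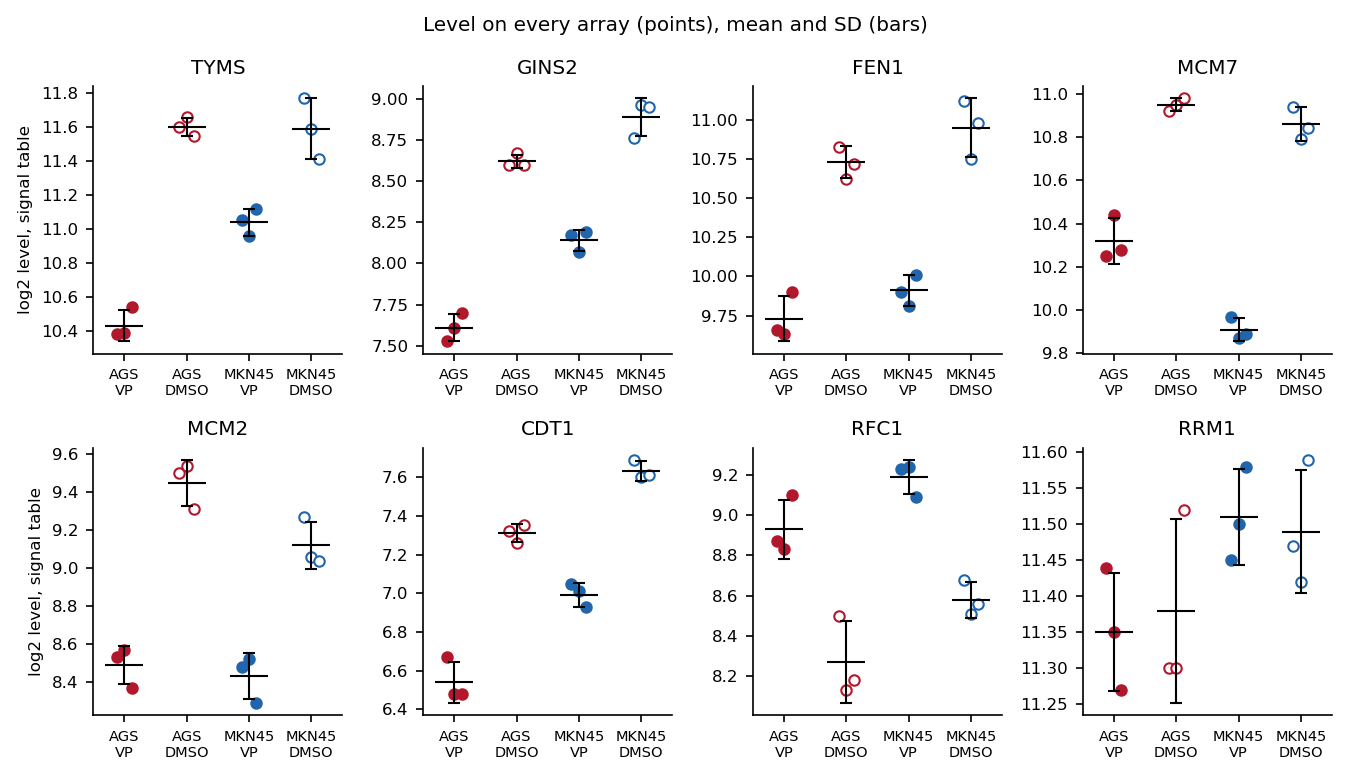
Log2 levels in the signal table of 8 members on each of the 12 arrays (points, filled for VP and open for DMSO), with group mean and SD (bars, n = 3). For TYMS, GINS2, FEN1, MCM7, MCM2 and CDT1 every VP array lies below every DMSO array of its line, for RFC1 above, and for RRM1 the groups overlap. Each panel has its own vertical axis.

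Of 6 origin firing genes tested, 3 fell in AGS and 2 in MKN45 in the signals, against 30.0% and 23.1% of all genes. Under the median shift 2 of 6 fell in AGS and 0 of 6 in MKN45, against 12.9% and 6.2% of all genes. GINS2 and GINS3, subunits of the ring-shaped GINS cofactor of the helicase, fell in both lines, whereas GINS4 was called in neither. GINS2 read 7.53, 7.61 and 7.70 with VP in AGS, against 8.60, 8.67 and 8.60 with DMSO. In MKN45 it read 8.17, 8.07 and 8.19 with VP, against 8.76, 8.96 and 8.95. It fell on all VP arrays, to 49.6% of the DMSO level in AGS (−1.01 ± 0.09, adjusted p = 1.06e-06) and to 59.5% in MKN45 (−0.75 ± 0.09, adjusted p = 2.84e-05). GINS3 read 6.66, 6.81 and 6.89 with VP in AGS, against 7.72, 7.63 and 7.68 with DMSO, and 7.40, 7.18 and 7.32 in MKN45, against 7.61, 7.49 and 7.59. Both lines were separated, but GINS3 fell by 0.89 ± 0.10 in AGS (adjusted p = 4.85e-06) and by 0.27 ± 0.10 in MKN45 (adjusted p = 0.0383), a difference of −0.63 ± 0.14 between the lines (interaction adjusted p = 0.0121, not called under the median shift). In MKN45 GINS3 stood at 0.05 under the median shift and lost its call without any of 6 arrays (AGS VP 2 and DMSO 3, MKN45 VP 2, VP 3, DMSO 1 and DMSO 3). CDC7, the kinase that triggers firing, fell by 0.44 in AGS (adjusted p = 0.00769) and changed by −0.25 in MKN45. CDC45 and MCM10, which join and activate the helicase, changed by −0.15 and −0.27 in AGS and by −0.20 and −0.34 in MKN45, with no call. CDC7 and CDC45 changed by −0.03 and 0.10 in AGS and by 0 and −0.04 in MKN45 in the value table.

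GINS4 fell in MKN45 in the value table, a call that held under each alternative run. It read 8.22, 8.21 and 8.23 with VP in MKN45, against 8.41, 8.48 and 8.49 with DMSO, and fell by 0.24 ± 0.06 (adjusted p = 0.00626). In AGS it read 8.07, 8.09 and 7.93 with VP, against 7.78, 7.94 and 7.97, a change of 0.13 ± 0.06 (adjusted p = 0.109), and the effects differed between the lines by 0.37 (adjusted p = 0.00623). In the signals the groups of GINS4 overlapped in both lines, with changes of −0.11 in AGS and −0.25 in MKN45. The same table had MCM10 lower in MKN45, by 0.18, a call that was lost without any of 7 arrays (AGS VP 1 and DMSO 1, MKN45 VP 1, VP 2, VP 3, DMSO 1 and DMSO 3). GINS2 and GINS3, which fell in the signals, changed by 0.10 and 0.16 in AGS and by −0.14 and −0.01 in MKN45 there, and the rise of GINS3 in AGS was lost without AGS VP 1, VP 2 or DMSO 3.

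Of 6 polymerase and primase genes tested, 4 fell and 1 rose in AGS in the signals, against 30.0% and 26.3% of all genes. MKN45 had 3 lower and 1 higher, against 23.1% and 22.9%. Under the median shift 2 fell in AGS and 0 in MKN45, against 12.9% and 6.2% of all genes, and 1 rose in each line. POLE, the catalytic subunit of the leading strand polymerase, fell to 46.9% of its DMSO level in AGS (−1.09 ± 0.16, adjusted p = 5.66e-05) and to 68.8% in MKN45 (−0.54 ± 0.16, adjusted p = 0.0128). Its partner POLE2 fell by 0.73 in AGS and by 0.38 in MKN45. POLA1, the catalytic subunit of polymerase alpha, fell by 0.62 in AGS and by 0.52 in MKN45, while its partner POLA2 changed by −0.22 and 0.02. POLD1, the catalytic subunit of the lagging strand polymerase, fell by 0.56 in AGS and changed by −0.23 in MKN45 (adjusted p = 0.244). PRIM1, the catalytic subunit of primase that lays the RNA primers, rose. It read 9.09, 9.19 and 9.21 with VP in AGS, against 8.66, 8.85 and 8.96 with DMSO, and 9.04, 9.18 and 8.97 in MKN45, against 8.75, 8.93 and 8.62. The groups did not overlap in either line, and PRIM1 rose by 0.34 ± 0.11 in AGS (adjusted p = 0.0181) and by 0.30 ± 0.11 in MKN45 (adjusted p = 0.0391), with a second probe at 0.55 and 0.39. The AGS call was lost without AGS DMSO 1 or VP 2, and the MKN45 call without AGS VP 2 or any of MKN45 VP 1, VP 2, DMSO 1 and DMSO 3.

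PRIM1 also rose in AGS in the value table, by 0.17 (adjusted p = 0.0453, lost without any 1 of AGS VP 1, VP 2, VP 3, DMSO 1, DMSO 2 and MKN45 VP 3), but changed by −0.14 in MKN45, and the effects differed between the lines (0.30, adjusted p = 0.0257). The second PRIM1 probe changed by 0.11 in AGS there (limma, adjusted p over probes = 0.167). In MKN45 it changed by −0.20 (adjusted p over probes = 0.0149), opposite to its rise in the signals. POLA2 read 8.86, 8.74 and 8.82 with VP in AGS there, against 8.58, 8.66 and 8.61 with DMSO. All VP arrays were above all DMSO arrays, and POLA2 rose by 0.19 ± 0.06 (adjusted p = 0.00958), a call that was lost without AGS VP 1. The other polymerase genes changed by −0.13 to 0.08 in AGS and by −0.14 to 0.07 in MKN45.

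PCNA and its loader moved in both directions. PCNA, the clamp that holds polymerases on DNA, read 10.78, 11.09 and 11.25 with VP in AGS, against 12.08, 11.96 and 11.96 with DMSO. In MKN45 it read 11.46, 11.56 and 11.57 with VP, against 11.79, 11.96 and 12. PCNA fell to 51.4% of its DMSO level in AGS (−0.96 ± 0.12, adjusted p = 1.29e-05) and to 76.4% in MKN45 (−0.39 ± 0.12, adjusted p = 0.0147). The difference between the lines was −0.57 ± 0.17 (adjusted p = 0.0414), and it was called in 1 of the 12 fits that left out an array, that without AGS VP 3. The MKN45 call of PCNA was lost without MKN45 VP 1 or DMSO 3. A dimmer PCNA probe changed by −0.35 in AGS (adjusted p = 0.16) and by 0.05 in MKN45 (adjusted p = 0.86), and was called in neither line.

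RFC1, the large subunit of the clamp loader, had the largest rise of any member. It read 8.87, 8.83 and 9.10 with VP in AGS, against 8.5, 8.13 and 8.18 with DMSO, and 9.23, 9.24 and 9.09 in MKN45, against 8.68, 8.51 and 8.56. Every VP array was above every DMSO array, and RFC1 rose 1.58-fold in AGS (0.66 ± 0.12, adjusted p = 0.000316) and 1.52-fold in MKN45 (0.61 ± 0.12, adjusted p = 0.000895). A dimmer RFC1 probe rose by 0.58 in AGS (adjusted p over probes = 0.028), and its change of 0.31 in MKN45 was not called (adjusted p over probes = 0.244). RFC4, a small loader subunit, read 9.99, 9.98 and 9.98 with VP in AGS, against 9.59, 9.64 and 9.58 with DMSO, and 10.10, 9.98 and 9.79 in MKN45, against 9.52, 9.75 and 9.64. It rose by 0.38 ± 0.10 in AGS (adjusted p = 0.0056) and by 0.32 ± 0.10 in MKN45 (adjusted p = 0.0184). The MKN45 call was lost without MKN45 VP 1, VP 2 or DMSO 1, and a second RFC4 probe changed by 0.19 and 0.37 with no call. With any 1 of these 3 arrays left out, RFC1 alone of the 40 members remained called higher in MKN45. The small subunit RFC5 fell by 0.63 in AGS and by 0.44 in MKN45, while RFC2 and RFC3 changed by −0.22 and −0.17 in AGS and by −0.01 and −0.14 in MKN45.

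The value table had RFC3 at 8.46, 8.59 and 8.43 with VP in MKN45, against 8.76, 8.84 and 8.69 with DMSO. These groups were separate, and RFC3 fell by 0.27 ± 0.07 (adjusted p = 0.007) and was called lower in each fit that left out an array. A second RFC3 probe changed by −0.34 there. In AGS RFC3 changed by 0.004. PCNA, RFC1 and RFC4 changed by 0.02, 0.06 and 0.13 in AGS and by 0.11, 0.10 and −0.03 in MKN45 in the value table, with no call.

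**Figure D5:**
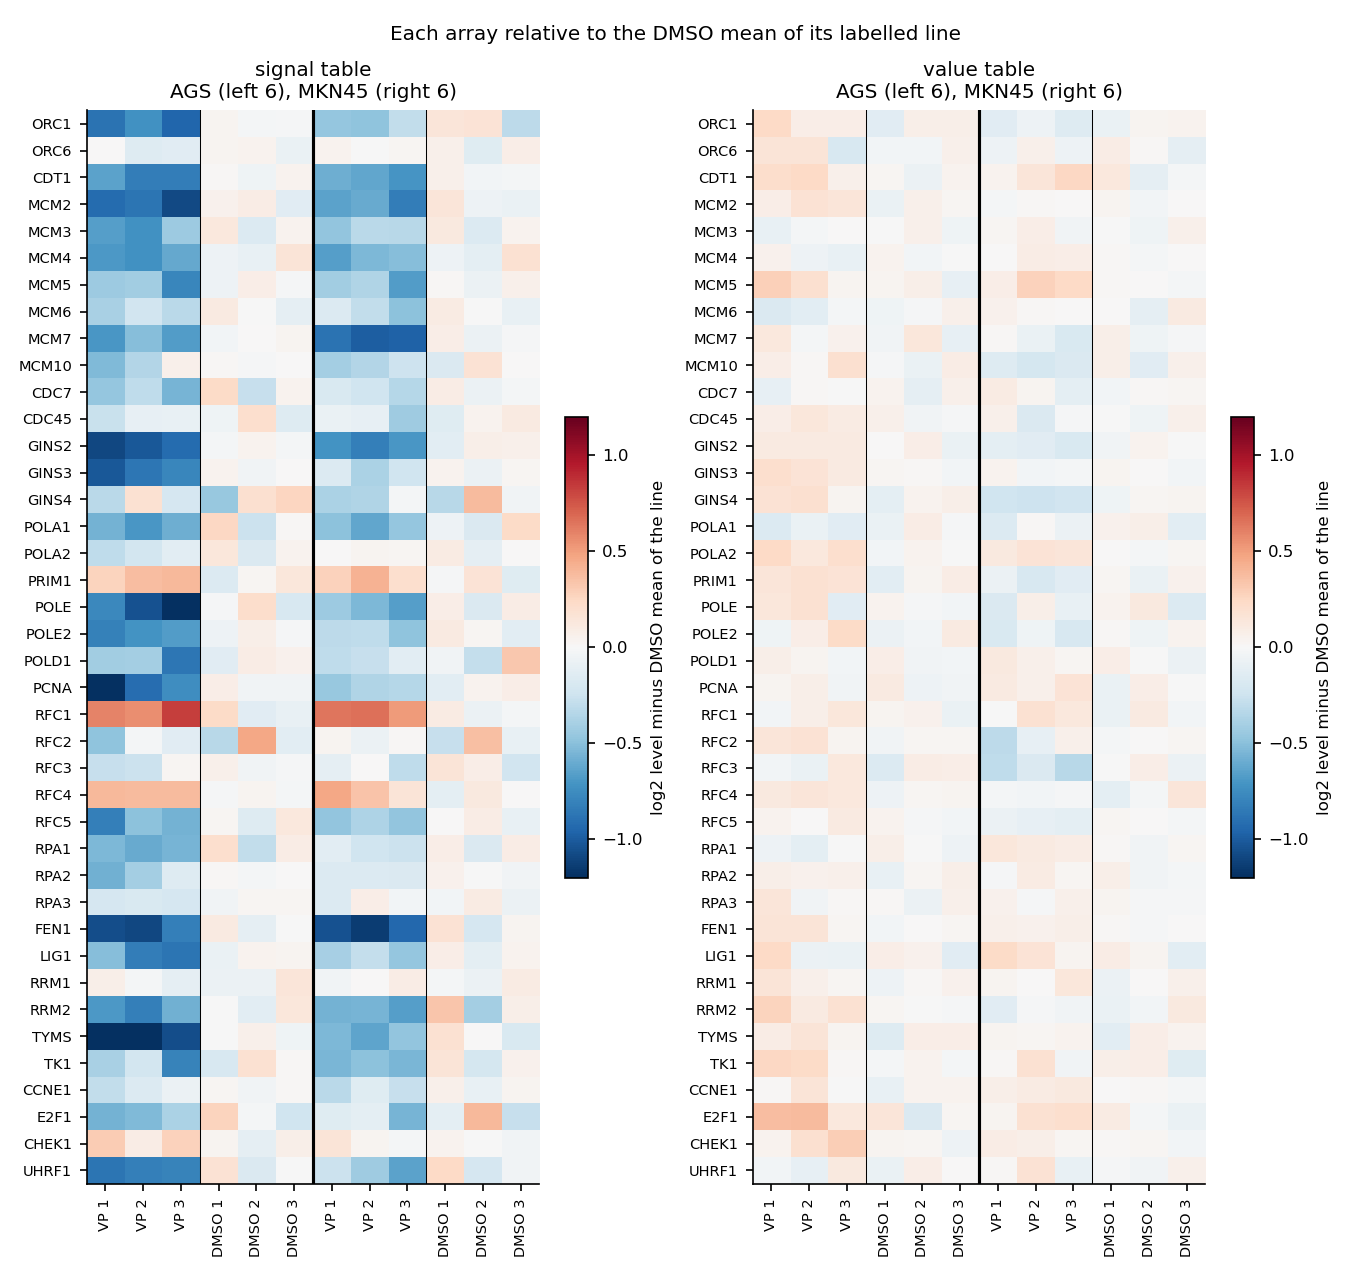
Log2 level of each of the 40 members on each array minus the DMSO mean of its labelled line, in the signal table (left) and the value table (right). Columns are VP 1 to 3 then DMSO 1 to 3 of AGS and the same of MKN45, blue is lower and red higher. VP columns are mostly blue in the signals, apart from RFC1, RFC4, PRIM1 and CHEK1, and pale in the value table.

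RPA, the single-strand binding trimer, fell in part. RPA1 and RPA2, its large and middle subunits, fell by 0.57 and 0.38 in AGS and changed by −0.21 and −0.17 in MKN45 without a call. Both AGS calls were lost under the median shift (−0.39 and −0.20, limma adjusted p = 0.0869 and 0.425). RPA3, the small subunit, changed by −0.20 in AGS and −0.03 in MKN45. For RPA1 the other probes, both dimmer, changed by −0.37 and −0.42 in MKN45, with an adjusted p of 0.043 and 0.0263 over probes. Value table changes of RPA1, RPA2 and RPA3 were −0.06, 0.06 and 0.04 in AGS and 0.11, 0.04 and 0.03 in MKN45. The genes that process Okazaki fragments fell in both lines. FEN1, the flap endonuclease, read 9.66, 9.63 and 9.90 with VP in AGS, against 10.83, 10.62 and 10.72 with DMSO. In MKN45 it read 9.90, 9.81 and 10.01 with VP, against 11.12, 10.75 and 10.98. FEN1 fell to 50.1% of its DMSO level in AGS (−0.997 ± 0.12, adjusted p = 9.48e-06) and to 48.5% in MKN45 (−1.05 ± 0.12, adjusted p = 1.17e-05), and a second probe fell by 0.90 and 0.91. LIG1, the ligase that seals the fragments, fell by 0.74 in AGS and by 0.38 in MKN45. FEN1 changed by 0.11 and 0.06 and LIG1 by 0.03 and 0.14 in the value table, with no call.

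Of 4 nucleotide supply genes tested, 3 were called lower in each line in the signals, against 30.0% of all genes in AGS and 23.1% in MKN45. Under the median shift 2 of 4 fell in AGS and 0 of 4 in MKN45, against 12.9% and 6.2% of all genes. TYMS, thymidylate synthase, which makes dTMP and is the target of fluorouracil, read 10.38, 10.39 and 10.54 with VP in AGS, against 11.60, 11.66 and 11.55 with DMSO. In MKN45 it read 11.05, 10.96 and 11.12 with VP, against 11.77, 11.59 and 11.41. TYMS fell on every VP array, to 44.5% of its DMSO level in AGS (−1.17 ± 0.11, adjusted p = 8.33e-07) and to 68.5% in MKN45 (−0.55 ± 0.11, adjusted p = 0.000868). The fall was larger in AGS by 0.62 ± 0.15 on the log2 scale (interaction adjusted p = 0.0179), and that call held in each fit that left out an array but not under the median shift. RRM2, the S phase subunit of ribonucleotide reductase, fell by 0.70 ± 0.15 in AGS and by 0.59 ± 0.15 in MKN45. Its partner RRM1, the large catalytic subunit, changed by −0.02 and 0.01, with overlapping groups. TK1, the thymidine salvage kinase, fell by 0.47 in AGS, a call lost without AGS VP 3 or DMSO 2, and by 0.53 in MKN45. The value table had RRM2 at 8.94, 8.78 and 8.86 with VP in AGS, against 8.70, 8.67 and 8.66 with DMSO, a rise of 0.18 ± 0.06 (adjusted p = 0.0261), a call lost without AGS VP 1, DMSO 2 or DMSO 3. With the row names as deposited RRM2 read −0.04 there, and TYMS changed by 0.09 in AGS and 0.03 in MKN45. TK1 changed by 0.17 and 0.05 and RRM1 by 0.075 and 0.055, with no call.

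Of the regulators of entry into S phase, E2F1 fell in AGS and CCNE1 in MKN45 in the signals. E2F1, the transcription factor whose class of sites was searched for above, fell by 0.49 ± 0.18 in AGS (adjusted p = 0.03) and changed by −0.27 in MKN45. The AGS call was lost without any of AGS VP 1, VP 2, DMSO 1 and DMSO 2. The value table had E2F1 at 7.60, 7.61 and 7.36 with VP in AGS, against 7.38, 7.06 and 7.26 with DMSO. These groups overlapped by 1 array on each side, and E2F1 rose by 0.29 ± 0.08 (adjusted p = 0.00575), a call lost without AGS DMSO 2. Cyclin E1 (CCNE1) fell by 0.26 in MKN45 in the signals (adjusted p = 0.0385), changed by −0.18 in AGS, and stood at 0.10 in MKN45 under the median shift. The MKN45 call was lost without any of 6 arrays (AGS VP 2 and DMSO 3, MKN45 VP 1, VP 3, DMSO 1 and DMSO 3). CHEK1, the kinase that holds origins back when forks stall, changed by 0.23 in AGS and 0.06 in MKN45 in the signals, and rose by 0.18 in AGS in the value table, a call lost without AGS VP 2, VP 3 or DMSO 3. UHRF1, which carries DNA methylation across the fork, fell by 0.83 ± 0.14 in AGS (adjusted p = 0.000146) and by 0.44 ± 0.14 in MKN45 (adjusted p = 0.0157), a call lost without MKN45 VP 3 or DMSO 1. CCNE1 and UHRF1 changed by 0.05 and −0.005 in AGS and by 0.09 and 0.04 in MKN45 in the value table, with no call.

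Between the lines, 28 of 40 members (70%) had the lower change in AGS in the signals, against 53.7% of all genes, and 37 (92.5%) had the same sign in both lines, against 77.1%. The VP effect differed between lines for 3 members, GINS3, PCNA and TYMS, all with the larger fall in AGS, while it differed for 11.2% of all genes tested. It differed for 4 members of the value table, MCM10, GINS2, GINS4 and PRIM1, all with the higher change in AGS, against 11.7% of all genes in that table, and 13 members (32.5%) had the lower change in AGS, against 51.5% of all genes. The sign was the same in both lines for 18 members (45%), against 64.4% of all genes. GINS4 alone of these 4 was called in each fit that left out an array.

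Other genes of the same pathways, from lists drawn up for comparison, were called lower more often than higher in the signals, where 30.0% of all genes fell and 26.3% rose in AGS, and 23.1% and 22.9% in MKN45. Of 31 further replication genes tested, the AGS arrays had 19 lower and 1 higher (median −0.35) and the MKN45 arrays 13 lower and 1 higher (median −0.25). Under the median shift the counts were 8 lower and 2 higher in AGS, with 3 lower and 1 higher in MKN45, where the median was 0.06. Of all genes, 12.9% were lower and 30.7% higher in AGS under that shift. In MKN45 they were 6.2% and 34.7%, with a median of 0.27. TIMELESS, which protects stalled forks, fell by 1.43 in AGS and by 0.64 in MKN45 (under the median shift −0.30 there, adjusted p = 0.193), and NASP, a chaperone of histone H3, fell by 1.10 and by 1.23. RNASEH2C, a subunit of the enzyme that removes ribonucleotides from DNA, fell by 1.09 and by 0.87. POLD4, the smallest subunit of polymerase delta, rose by 1.21 in AGS and by 0.63 in MKN45. Of the 31, the value table had 1 lower and 4 higher in AGS (14.1% and 16.1% of all genes). In MKN45 it had 4 lower and 4 higher (10.7% and 11% of all genes). Value table changes of TIMELESS, NASP, RNASEH2C and POLD4 were 0.06, −0.09, 0.13 and 0.09 in AGS and 0.05, −0.03, −0.19 and 0.15 in MKN45.

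Of 25 further nucleotide genes tested, the AGS arrays had 17 lower and 3 higher (median −0.40) and the MKN45 arrays 10 lower and 4 higher (median −0.23). Under the median shift the counts were 6 lower and 4 higher in AGS, with 2 lower and 5 higher in MKN45, where the median was 0.001. Over all genes that shift gave 12.9% lower and 30.7% higher in AGS, and 6.2% and 34.7% in MKN45. The 2 of 25 lower in MKN45 thus stood near the share of all genes. CAD, which begins pyrimidine synthesis, fell by 1.32 in AGS and by 1.05 in MKN45. DUT, the enzyme that keeps dUTP out of DNA, fell by 1.26 and by 0.96, and CTPS1, a CTP synthase, fell by 1.10 and by 0.58 (under the median shift −0.23 in MKN45, adjusted p = 0.341). GART, a purine synthesis enzyme, rose by 0.98 in AGS and by 0.46 in MKN45. RRM2B, the reductase subunit known as a p53 target, rose by 0.58 and by 0.76, the direction opposite to RRM2. Of the 25, the value table had 0 lower (limma, also 0 at an unadjusted p under 0.05) and 4 higher in AGS. In MKN45 it had 1 lower and 2 higher. The shares over all genes in that table at the adjusted threshold were 14.1% lower and 16.1% higher in AGS, and 10.7% and 11% in MKN45. There CAD, DUT, CTPS1, GART and RRM2B changed by 0.07, −0.04, 0.12, 0.13 and −0.05 in AGS and by 0.08, −0.14, 0.14, 0.10 and −0.06 in MKN45. Of all member calls in the signals, 25 of 29 in AGS and 16 of 25 in MKN45 held in each of the 12 fits that left out an array, and leaving out MKN45 DMSO 1 removed 8 MKN45 calls, the most of any array.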

How the data were processed

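Gene expression was measured on 12 arrays, grouped by column names that match the labels. The authors deposited probe signals, linear intensity values with a detection p-value for each, and their processing notes name GenomeStudio, with whether background had been subtracted not given in the sources used here. A second deposited table, the value table, holds log2 levels that per the methods went through limma's quantile normalization. Sorted value columns were identical within each line to 0.001. Whether the lines had been normalized together or separately was not tested. Past row 21197 its 26125 values belong to the probe of the next row, so names were moved by 1, and the last row, which holds linear signals, was dropped.

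Signals were background corrected by normexp with the background inferred from the detection p-values (offset 16), quantile normalized over 12 arrays and log2 transformed (limma 3.58.1, R 4.3.3). The detection filter kept 16021 of 47323 probes, those whose detection p-value lay below 0.01 on every one of the 3 arrays of some group. The value table was tested on these same probes, so its filter came from the signals. The annotation gave 30113 probes 1 symbol, 8 several and 17202 none. Entrez identifiers of 30074 matched RefSeq, which changed 0 symbols. The brightest probe stood for its gene, and 12 members had more than 1 probe past the filter. Probe p-values were adjusted over probes. A linear model of 4 groups was fitted to all 9696 genes of each table by limma, with Benjamini-Hochberg adjustment and a threshold of 0.05, and the difference between lines was tested as an interaction. The script was tested on simulated data. The number of arrays limits the precision.

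Members and lists were chosen with earlier results of these data known. All 44 members were accounted for. Values of every array were given for the 6 members per line with the smallest adjusted p in the signals, for members that differed between lines there, for the 3 per line with the smallest adjusted p in the value table, and for PRIM1, RFC1 and RFC4, which were added after their values were seen. From other lists, up to 3 genes per direction were named that changed most among those called in both lines in the signals. Columns of the authors' own comparisons were not used. The alternatives were another scaling, background correction, filter, probe rule, test, fit, a replicate block and leaving out arrays. The median shift over probes detected on all 12 arrays was chosen after seeing the data.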

Additional observations from a re-analysis of the deposited data

Results flagged for a closer look

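A test of the difference between the lines passed for 7 results. In the signals the VP change in AGS minus that in MKN45 was −0.63 for GINS3, −0.57 for PCNA and −0.62 for TYMS. In the value table it was 0.28 for MCM10, 0.25 for GINS2, 0.37 for GINS4 and 0.30 for PRIM1. GINS3 and TYMS in the signals and GINS4 in the value table were called in each of the 12 fits that left out an array. GINS3, which fell more in AGS in the signals, changed by 0.16 in AGS in the value table and by −0.01 in MKN45 there. GINS2, called in the value table, fell in both lines in the signals and its difference there was −0.26 (adjusted p = 0.202). The part of the differing tables and of the column labels in these values was not tested.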

How the results depend on the processing

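In the signals, the counts of members that fell held within 1.5 times under no background correction, either filter, the mean of probes, the fit of 6 arrays, the methods' t-test with adjusted p-values and the replicate block. With a median shift 16 members fell in AGS and 2 in MKN45, against 12.9% and 6.2% of all genes, and 0 members differed between lines. In MKN45 MCM6 stood at 0.005, GINS3 at 0.048 and CCNE1 at 0.101 under that shift. With the shift taken over probes detected on all 12 arrays, 28 fell in AGS and 21 in MKN45. The methods' t-test with adjusted p-values called 1 member higher in MKN45, as did the fit of 6 arrays. At the methods' unadjusted threshold of 0.001, the t-test called 1416 genes in AGS (10 members lower, 1 higher) and 861 in MKN45 (3 lower, 0 higher). The random variance test called 2988 (17 lower, 1 higher) and 2160 (6 lower, 1 higher), and limma 3359 in AGS (20 members lower, 1 higher) and 2479 in MKN45 (7 lower, 1 higher). The main counts of genes were 5466 in AGS and 4468 in MKN45.

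For the value table the main counts were 2925 genes in AGS with 2106 in MKN45. The methods' t-test with adjusted p-values called 1235 genes in AGS (0 members higher) and 977 in MKN45 (1 lower, 2 higher). At 0.001 unadjusted it called 540 (0 lower, 0 higher) and 423 (1 lower, 0 higher). At that threshold the random variance test called 1409 (0 lower, 0 higher) and 1251 (2 lower, 0 higher). With limma the counts were 1667 (0 lower, 1 higher) and 1230 (2 lower, 0 higher), with 1 member that differed between lines. The fit of 6 arrays called 3 members higher in AGS. With names as deposited 5 members fell and 0 rose in MKN45, and RRM2 in AGS read −0.043. The mean of probes called 2 members higher in MKN45.

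Leaving out each array in turn gave 1 to 3 members higher in MKN45 in the signals, with 1 without MKN45 VP 1, VP 2 or DMSO 1. In the value table it gave 2 to 9 members higher in AGS (2 without VP 1, 3 without VP 2 or DMSO 3, and 9 without VP 3), 0 to 1 higher in MKN45 (0 without VP 2, VP 3, DMSO 2 or DMSO 3) and 1 to 3 that differed between lines. That last count was 1 without AGS DMSO 1, MKN45 DMSO 3 or MKN45 VP 2, and 2 without AGS VP 1, AGS VP 3, MKN45 VP 1 or MKN45 VP 3. A group left with 2 arrays shares the spread of all groups. Same-numbered arrays did not deviate together, with a correlation over 0.1 in 1 of 3 pairs or fewer in each line and table. With the replicate number as a block, 26 members fell in AGS and 20 in MKN45 in the signals, and 8 rose in AGS by the value table. Calls lost with the block were GINS3 and CCNE1 in MKN45 and the PCNA difference between lines in the signals, and the GINS2 difference in the value table. Detection limited CDC6, GINS1, CCNE2 and CLSPN, which were not tested in the main fits. With no detection filter all 44 members were tested in the signals, and 26 fell in AGS and 20 in MKN45. A background filter drawn from the value table itself passed 41 members.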

Other observations

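Other regulators of the cell cycle changed in the signals as well. Of 25 further G1/S and checkpoint genes tested, the AGS arrays had 13 lower and 5 higher (30.0% and 26.3% of all genes) and the MKN45 arrays 10 lower and 5 higher (23.1% and 22.9% of all genes). Value table counts were 1 lower and 7 higher in AGS (14.1% and 16.1% of all genes). In MKN45 they were 2 lower and 3 higher (10.7% and 11% of all genes). Under the median shift the counts were 6 lower and 6 higher in AGS (12.9% and 30.7% of all genes). In MKN45 they were 5 lower and 7 higher under that shift (6.2% and 34.7% of all genes). WEE1, the kinase that holds CDK1 inactive, rose by 1.69 in AGS and by 1.32 in MKN45. RB1, which restrains E2F factors, rose by 0.65 and by 0.63, and CDKN1B, the inhibitor p27, rose by 0.59 and by 0.44. CDC25A, the phosphatase that activates cyclin-dependent kinases, fell by 0.90 in AGS and by 1.09 in MKN45. Cyclin D1 (CCND1) fell by 0.72 and by 1.19, and ATRIP, the partner of the checkpoint kinase ATR, fell by 1.003 and by 0.892. In the value table WEE1, RB1, CDKN1B, CDC25A, CCND1 and ATRIP changed by −0.09, 0.04, 0.01, 0.27, −0.01 and 0.28 in AGS and by 0.05, −0.04, 0.14, 0.03, 0.10 and 0.01 in MKN45.

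Of 30 mitosis genes tested, the AGS arrays had 15 lower and 4 higher in the signals (30.0% and 26.3% of all genes). The MKN45 arrays had 9 lower and 3 higher (23.1% and 22.9% of all genes), so 9 of 30 stood near the share of all genes. The medians were −0.30 in AGS and −0.06 in MKN45. The value table had 2 lower and 2 higher in AGS (14.1% and 16.1% of all genes). In MKN45 it had 3 lower and 1 higher (10.7% and 11% of all genes). Under the median shift the counts were 8 lower and 4 higher in AGS, with 4 lower and 6 higher in MKN45, where the median was 0.22. That shift had 12.9% of all genes lower and 30.7% higher in AGS, and 6.2% and 34.7% in MKN45. The proliferation marker MKI67 fell by 0.90 in AGS and by 0.73 in MKN45, survivin (BIRC5) by 1.05 and by 0.83, and CDC20, an activator of the anaphase-promoting complex, by 0.78 and by 0.80. The kinetochore genes NDC80 and NUF2 rose, by 1.11 and 0.89 in AGS and by 0.88 and 0.56 in MKN45. In the value table MKI67, BIRC5, CDC20, NDC80 and NUF2 changed by −0.21, 0.06, 0.15, −0.06 and 0.12 in AGS and by −0.01, 0.07, −0.05, 0.05 and 0.21 in MKN45.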
